A study of Mus musculus with 48 samples.

Results

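Of the 32816 probes in the log2 table that accompanied these liver microarrays, 121 (0.369%) were exclusively high in mice lacking PPARα in the whole body. They were selected on their log2 values alone. A probe was taken when its lowest value over the 16 arrays of whole-body deletion, both diets together, lay above its highest value over the other 32 arrays, and when the means of those arrays differed by at least 1 log2 unit (a doubling). *Gdpd3* was left out by name; its probe differed by 3.84 log2 units, and its lowest value lay 0.29 log2 units below the highest of the other arrays. The 121 probes carried 113 names, of which 98 were gene names on 106 probes, the others being 6 probes for intervals of long intergenic non-coding RNA (lincRNA) and 9 for bare transcript or clone accessions. The separation from the other arrays is what selected these probes, so it is given below as a description and was not tested. The tests concern comparisons that the selection did not make, namely the effect of the high-fat diet within a genotype and the difference between the other genotypes. Every array entered the selection, however, so the rule limits how far these values can spread. The shares called are therefore descriptions of the selected set. Values just inside the selection were a gap between the groups of 0.023 for *Slc22a15* and *Syt1* and 0.024 for *Vldlr*, and differences of the means of 1.00 for *Rapgefl1* and *2210015D19Rik* and 1.01 for *Cage1*. Just outside were gaps of -0.0036 for *Gm26670*, -0.011 for another *Slc22a15* probe and -0.013 for *Gm3264*, and differences of 0.99 for another *Bckdhb* probe and for *Arhgap31* and 0.98 for *4930524O05Rik*.

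The study asked how the liver transcriptome responds to a high-fat diet when PPARα is missing in hepatocytes alone or in the whole body. The mice were male C57Bl6J of 20 weeks, held at thermoneutrality and killed in the fed state, and had received a low-fat control diet (CTRL) or a high-fat diet with 60% of fat (HFD) for 12 weeks according to the labels. The study's own text gives a shorter time on the diets. Wild-type (*WT*), hepatocyte-specific *Pparα*-null (*Pparα*hep-/-, PPARaLKO in the labels) and whole-body *Pparα*-null (*Pparα*-/-, PPARaKO) mice made up 6 groups of 8 mice with 1 array each. *Pparα*hep-/- mice carried 1 albumin-Cre transgene and floxed *Pparα* alleles, so that deletion was confined by design to cells with an active albumin promoter. *Pparα*hep-/- and *Pparα*-/- mice were bred in the study's own facility, whereas *WT* mice were bought and acclimated for 2 weeks. All *Pparα*-/- mice came from 1 line, so the whole-body deletion and anything else in which that line differs cannot be told apart in this design. Hepatocyte deletion likewise cannot be told apart from the Cre transgene, the line and the breeding source, in which *Pparα*hep-/- and *WT* mice also differed. Where the text below says that hepatocyte deletion raised or lowered a probe, it means this difference between groups of mice.

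PPARα is a nuclear receptor that is activated by fatty acids and, as a heterodimer with RXR, binds direct repeats of a short half-site. In liver it is best known for raising genes of fatty acid oxidation and ketone body formation during fasting. It is also present in kidney, heart, brown fat and other tissues, which whole-body deletion reaches and deletion by albumin-Cre does not. The arrays measured RNA of whole liver, where fewer cells of a type and less RNA per cell cannot be told apart.

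Several of the probes that stood farthest apart detect transcripts with little or no functional annotation, and their sequences are the most direct description of what was measured. The 60-base probes below, written 5′ to 3′ with positions in mm9 from the array annotation, are shown for the annotated long non-coding RNAs that stood farthest apart (*BC018473* and *AA465934*), for a neighbouring pair of cDNA clones on chromosome 7, and for 3 non-coding RNAs that the diet or the hepatocyte deletion also changed. They lie at chr11:116616760-116616819 (forward), chr11:83105324-83105516 (forward, split over a gap), chr7:47159163-47159222 (reverse), chr7:47525057-47525116 (forward), chr4:109076213-109076272 (reverse), chr3:137873681-137873740 (reverse) and chr17:32044984-32045043 (reverse), in that order. The last of them lies within the lincRNA interval chr17:32035750-32056000.
BC018473: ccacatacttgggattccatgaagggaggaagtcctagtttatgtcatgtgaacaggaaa
AA465934: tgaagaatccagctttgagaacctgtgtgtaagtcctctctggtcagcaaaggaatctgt
4930435C17Rik: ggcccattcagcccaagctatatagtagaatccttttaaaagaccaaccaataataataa
4933404I11Rik: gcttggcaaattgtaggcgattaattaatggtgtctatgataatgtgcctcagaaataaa
Ttc39aos1: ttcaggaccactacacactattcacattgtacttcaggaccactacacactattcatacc
0610031O16Rik: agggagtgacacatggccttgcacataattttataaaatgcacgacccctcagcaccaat
chr17 lincRNA: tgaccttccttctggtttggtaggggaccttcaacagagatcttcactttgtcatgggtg

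*Xaf1* had a second probe that moved the opposite way, and the first 30 bases of each are shown so that the pair can be told apart. The exclusively high probe lies at chr11:72127175-72127234 and the other at chr11:72122169-72122228, both forward in mm9.
Xaf1 exclusively high probe: tctgtatttctggaccacagtcactcattt
Xaf1 other probe: ccttcaacccttgcatttatggactctgga

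The arrays as a whole gave the following frame. Between 28234 and 38217 spots per array were well above background, 28234 to 36437 of them on *Pparα*-/- arrays. The log2 of the summed intensities of the hepatocyte markers, *Alb*, *Ttr*, *Apoa1*, *Serpina1c*, *Cps1* and *Tat*, was 20.27 to 20.36 on *Pparα*-/- arrays and 20.21 to 20.41 on the others. Such a sum is set mostly by the brightest markers. A probe of *Ppara* itself at chr15:85632110-85632169 had mean levels of 13.89 and 14.03 in *Pparα*-/- mice on CTRL and HFD, against 14.57 and 15.01 in *WT*. A second *Ppara* probe had 11.73 and 12.07 against 12.88 and 13.29. Both probes still gave strong signal in *Pparα*-/- mice, and whether they lie in the deleted part is not given in the sources used here, so they check nothing about the labels. The lowest weights in the model went to 4 arrays, *WT* CTRL replicate 6, *WT* HFD replicates 2 and 6 and *Pparα*hep-/- CTRL replicate 1, at 0.189 to 0.372. Without these 4 arrays, 135 probes met the rule, 117 of them among the 121.

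The 121 probes spanned differences of 1.00 to 5.30 log2 units, with a median of 1.52. In 38 the difference reached 2 log2 units, in 11 it reached 3, and in 59 it was under 1.5. The gap between the lowest *Pparα*-/- array and the highest other array ran from 0.023 to 3.46, with a median of 0.50. On the *Pparα*-/- arrays 116 probes were well above background on all 16, and the fewest arrays for any probe was 13. On the other 32 arrays the probes were divided, 71 being well above background on all 32, 28 on 5 to 31, 13 on 1 to 4 and 9 on none. The filter on dim probes was therefore passed by 22 of the 121 through the *Pparα*-/- groups alone. All 121 passed it and were tested.

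**Figure D1:**
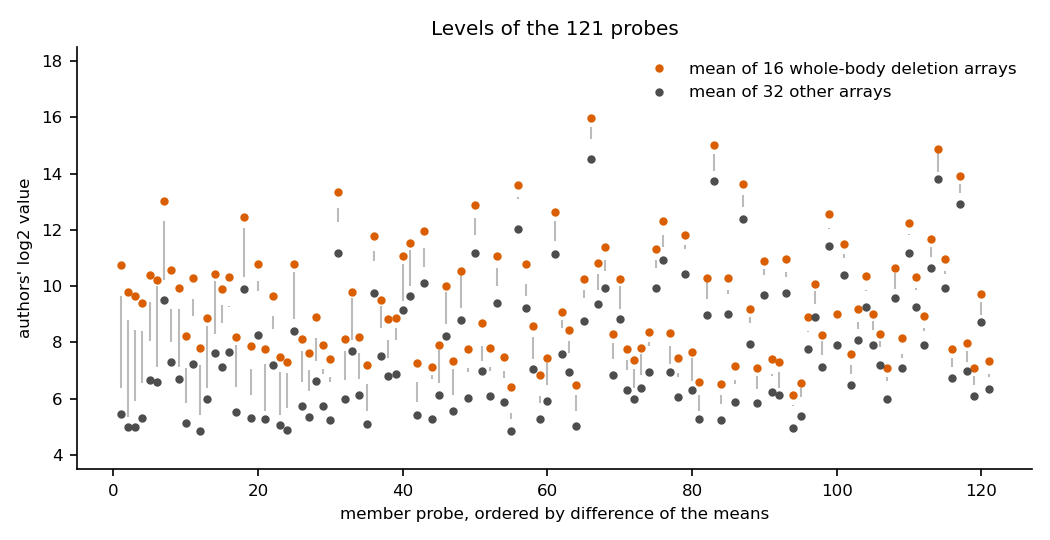
Mean level (authors' log2 value) of each of the 121 probes on the 16 whole-body deletion arrays (orange) and the 32 other arrays (dark grey), ordered by the difference of the means. Grey lines join the highest other array to the lowest deletion array; the longest such gap is 3.46 and the shortest 0.023.

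A probe of *Xaf1*, which encodes an interferon-inducible partner of the apoptosis inhibitor XIAP, had the largest difference of the means. Its levels on the authors' log2 scale (lowest, median and highest array) were 9.66, 10.61 and 11.26 in *Pparα*-/- mice on CTRL and 10.65, 10.96 and 11.17 on HFD. The other 4 groups had medians of 5.39 to 5.51 and a highest array of 6.40, and only 4 of those 32 arrays were well above background. Over *Pparα*hep-/- mice on CTRL, where the probe was well above background on no array, its signal in *Pparα*-/- mice was at least 34.5-fold higher. The second *Xaf1* probe, described below, was lower in *Pparα*-/- mice, so this bound is not one for the whole gene. LOC630751, annotated as an interferon-inducible GTPase 1-like transcript, had 9.07, 9.80 and 10.60 on CTRL and 8.80, 9.74 and 10.75 on HFD in *Pparα*-/- mice. It was not well above background on any of the other 32 arrays, whose highest value was 5.34, and was at least 19.5-fold to at least 22.1-fold higher than in the 4 other groups on the same diet. These were the largest differences of the set, and the gap between the lowest *Pparα*-/- array and the highest other array was wider for LOC630751 (3.46) than for *Xaf1* (3.26).

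*BC018473*, a long non-coding RNA, had the next largest difference, with 8.44, 9.46 and 10.13 in *Pparα*-/- mice on CTRL and 9.26, 9.84 and 10.54 on HFD, and reached 5.91 at most elsewhere. The testis cDNA clone *4930435C17Rik* had 8.62, 9.80 and 10.45 on CTRL and 8.41, 9.28 and 9.81 on HFD, against a highest other array of 6.55. *AA465934*, another long non-coding RNA, differed from these in being above background on all 48 arrays: it had 10.02, 10.18 and 10.40 on CTRL and 10.13, 10.25 and 10.47 on HFD, and 6.16 to 7.14 elsewhere.

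Among named coding genes, *Igsf23*, an immunoglobulin superfamily member, had 9.44, 10.14 and 10.52 in *Pparα*-/- mice on CTRL and 10.30, 10.68 and 11.08 on HFD, against 5.73 to 6.84 in *WT* and 6.58 to 8.06 in *Pparα*hep-/- mice. The acid-sensing ion channel gene *Asic5* had 12.33, 12.87 and 13.44 on CTRL and 12.64, 13.22 and 13.55 on HFD, against at most 10.22 elsewhere, and a second *Asic5* probe also met the rule. *Tgds*, a nucleotide sugar dehydratase, had medians of 10.02 and 9.88 against 6.51 to 6.88 with the selected probe, whereas a further *Tgds* probe differed by 0.27 between *Pparα*-/- and other arrays. *Asic5* was thus expressed well above background in all genotypes, whereas the probe of *Cyp2c39*, a cytochrome P450 of the 2C family, was not. It had 7.11, 7.98 and 8.35 on CTRL and 7.95, 8.57 and 9.03 on HFD in *Pparα*-/- mice, and it was not well above background on any of the other 32 arrays, which gives at least 5.31-fold to at least 9.01-fold. The histone gene *Hist2h2bb* (at least 4.33-fold to at least 6.28-fold), the olfactory receptor gene *Olfr224* (at least 4.31-fold to at least 6.04-fold) and *Adamts13*, the protease that cleaves von Willebrand factor (at least 3.44-fold to at least 5.22-fold), also had selected probes that were not well above background on any of the other 32 arrays. These bounds hold for the probe and not for the whole gene, since further probes of *Hist2h2bb* and *Adamts13*, described below, had signal in the other genotypes.

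The other leading names had *Pparα*-/- medians well separated from the rest. *Hddc3*, an HD-domain hydrolase, had 8.96 on CTRL and 8.74 on HFD, against 5.61 to 6.19. The homeobox gene *Prrxl1* had 10.28 and 10.53, against 7.54 to 7.68. *Ppp1r14a*, an inhibitor of myosin phosphatase, had 11.20 and 10.46, against 8.10 to 8.32. In *Prelid2* (means of 10.28 over the *Pparα*-/- arrays and 7.24 over the others), *Gm31025*, *Neto1*, *Wdr63*, *Bcl2l15*, *Col20a1*, *Col6a5* and *9030617O03Rik* the difference of the means was also above 2 log2 units. A probe named *Notch4* (medians of 7.69 and 8.10, against 5.31 to 5.34) was designed on a clone that its own annotation marks as possibly chimeric, at chr17:35104770-35104829, and the other *Notch4* probe, at chr17:34725384-34725442, differed by -0.088. The name is therefore uncertain for this probe. *Vldlr*, the very-low-density lipoprotein receptor, stood at the other end with respect to overlap: its means differed by 2.67 log2 units, but the highest other array, 9.27, nearly reached the lowest *Pparα*-/- array, 9.30.

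**Figure D2:**
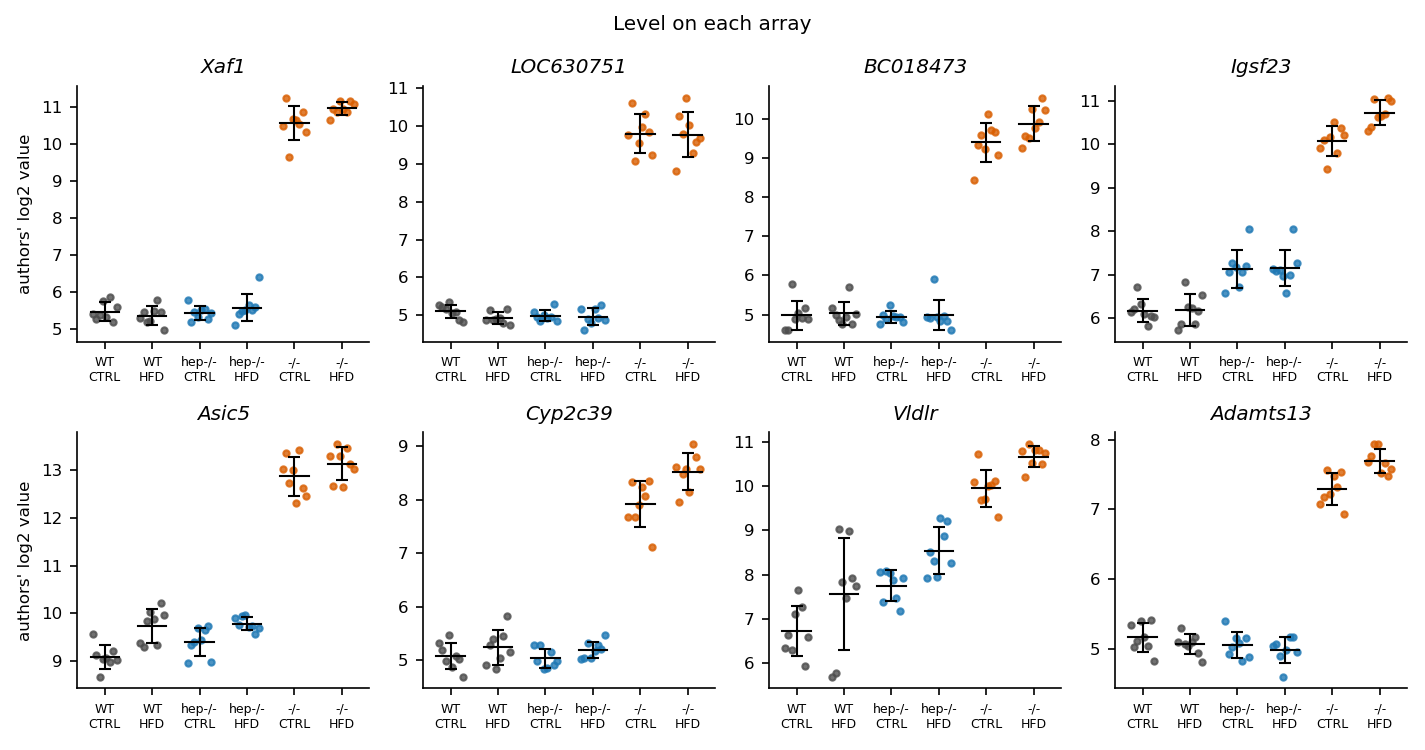
Level (authors' log2 value) on each array for 8 of the genes named in the text, by genotype (hep-/- is the hepatocyte deletion, -/- the whole-body deletion) and diet, with the mean and SD of 8 mice. All -/- points lie above all others by selection; *Igsf23* and *Vldlr* also show hep-/- above WT, while *Xaf1*, LOC630751, *BC018473* and *Adamts13* are near the floor of the scale in both.

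Further probes for the same genes, which the rule did not select, mostly did not share the difference. For 47 of the 98 genes the table held 76 of them, and their median difference between *Pparα*-/- and other arrays was 0.12 log2 units. The difference was at least 1 in 6 of them, between 0.5 and 1 in 14, within 0.5 of 0 in 50, between -0.5 and -1 in 3 and at or below -1 in 3. In 25 genes every further probe lay within 0.5 of 0. The high side held *B230311B06Rik* (1.53), *Slc22a15* (1.48), *Extl1* (1.31), *Acot11* (1.16), *Col6a5* (1.10) and *Sorl1* (1.02). Further probes of *Bckdhb* (0.99), *Timmdc1* (0.94), *Ttc39aos1* (0.91), *Iqcc* (0.90) and *Kdm2b* (0.64) were separated on the high side too without reaching 1 log2 unit. Another further *Iqcc* probe was separated on the low side (-0.55), its highest *Pparα*-/- array being 9.14 and its lowest other array 9.19. In contrast, 2 further probes were exclusively low in *Pparα*-/- mice by 1 log2 unit or more. The second *Xaf1* probe had a mean of 8.00 on the *Pparα*-/- arrays and 9.37 on the others, with a highest *Pparα*-/- array of 8.55 against a lowest other array of 8.56, although both probes are annotated to transcript variant 1. The second *Adamts13* probe, annotated to a transcript variant named IAP-a at chr2:26852318-26852377, had means of 6.13 and 7.83, whereas the exclusively high probe lies at chr2:26862185-26862244. A *Zfp30* probe differed by -1.26, and both further *Tsen34* probes by -0.59 and -0.56 against 1.32 for the selected one. For *Xaf1*, *Adamts13*, *Zfp30*, *Tsen34* and *Iqcc* the direction between *Pparα*-/- mice and the rest depended on the probe, so a level of the whole gene cannot be given. For *Hist2h2bb* the size did, the further probe having means of 6.81 and 6.28. Size also depended on the probe for *Tgds* (3.23 with the selected probe and 0.27 with the further one), *9030617O03Rik* (2.44 and 0.22), *Neto1* (2.16 and 0.33) and *0610031O16Rik* (2.02 and 0.40). Only 8 genes had 2 selected probes, and 46 names had 1 selected probe and no other in the table.

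**Figure D3:**
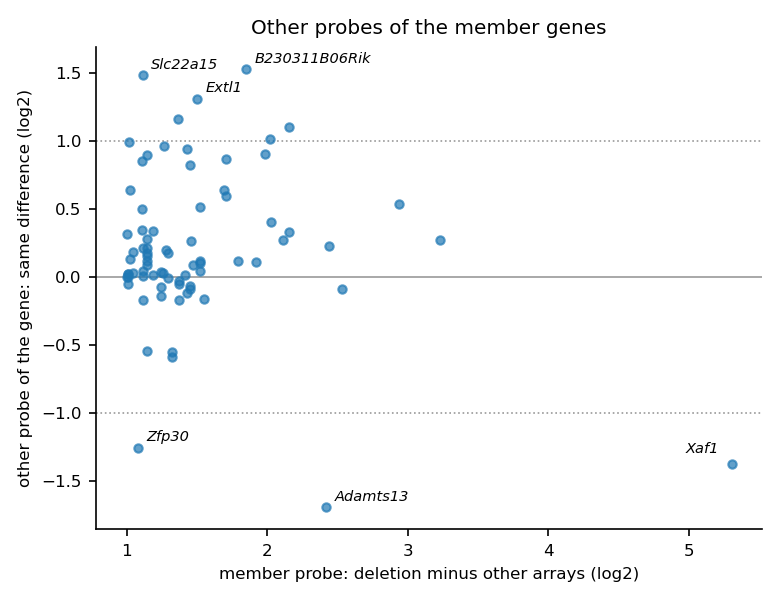
For each of the 76 further probes of the selected genes, the difference between whole-body deletion and other arrays (log2, vertical) against the largest such difference of a selected probe of that gene (horizontal). Dotted lines mark a difference of 1 in either direction; 50 of the 76 lie within 0.5 of 0, and *Xaf1*, *Adamts13* and *Zfp30* lie below -1.

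The positions of the probes were uneven. Of the 119 with a position, 20 were on chromosome 7 (16.8%, against 7.43% of the table's probes), 13 on chromosome 4 (10.9% against 6.53%) and 11 on chromosome 11 (9.24% against 7.77%), while chromosomes 6, 10, 15, 16 and X held 1 each and Y held none. Of the 162 exclusively low probes 29 were on chromosome 7 and 21 on chromosome 4, so these chromosomes were not particular to the set. The single exclusively high probe on chromosome 15 lay 16.9 Mb from *Ppara*. With neighbours joined when they started within 1 Mb of each other, 26 runs formed, 19 of which held at least 2 names and together 42 probes. Runs among other table probes were not counted, so these numbers are descriptions without a background. Some names share a locus, such as *Hist1h4i* and ENSMUST00000102977, both annotated as histone H4i, within 0.608 kb. On chromosome 11 *Nle1*, *AA465934* and the chemokine gene *Ccl9* lay within 673.8 kb that held 27 table probes, 1 of them exclusively low. On chromosome 4 *Hdhd3*, *Alad* and *Akna* lay within 886.3 kb with 25 table probes, and on chromosome 5 a pair of lincRNA intervals and LOC102641139 lay within 277.1 kb with 15. The LOC102641139 probe lies inside 1 of these intervals on the same strand, so the names of this run are not all separate loci. On chromosome 13, *Ssr1* and *Cage1* took all 3 table probes of a 37.6 kb stretch. The clones *4930435C17Rik* and *4933404I11Rik* were the only table probes in their 366 kb on chromosome 7, and *Acad12* and *Acad10* (2 of 3 probes) shared 15.6 kb on chromosome 5. A run of *Olfr224* and ENSMUST00000137124 on chromosome 11 held 24 table probes. Whether neighbouring probes share a cause was not tested.

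The first comparison that the selection did not make was the hepatocyte deletion against *WT* on each diet. The counts for *Pparα*hep-/- and *WT* mice here and below include the 22 probes that passed the filter through the *Pparα*-/- groups alone. Here and below, calls required a Benjamini-Hochberg adjusted p of 0.05 or less from limma over all 33326 tested probes. On the CTRL diet 37 of the 121 probes were called (30.6%, background 24.7%), 32 higher in *Pparα*hep-/- mice (background 11.3%) and 5 lower (13.4%). The share called was thus not far above that of all probes, whereas the split was 32 to 5, against 3766 to 4476 over all probes, with a median change of 0.06 for the 121 and -0.01 for all. On the HFD 34 were called (28.1%, background 26.7%), 23 higher (13.3%) and 11 lower (13.4%), with medians of 0.03 and -0.02. Without array weights 13 were called on the HFD (background 9.74%), and without the filter on dim probes 18 (9.95%). The comparisons on each diet shared no arrays. Called on both were 21 probes, which is 56.8% of those called on CTRL and 61.8% of those called on HFD, against 36.1% and 33.4% over all probes. Of the 121, 16 were higher on both diets (13.2%, background 4.05%), 4 lower on both (3.31%, background 4.14%) and *D130020L05Rik* in opposite directions. Neither comparison called 71 (58.7%, background 57.5%). These include probes such as those of LOC630751, *Cyp2c39* and *Adamts13*, which were not well above background on any of the 32 arrays compared, so that a difference between *Pparα*hep-/- and *WT* mice could hardly have been measured.

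The probes raised by hepatocyte deletion on both diets included non-coding RNAs and genes of lipid and lipoprotein handling. *Ttc39aos1*, a long non-coding RNA antisense to *Ttc39a*, had 5.01, 5.54 and 7.10 in *WT* and 6.73, 7.29 and 8.00 in *Pparα*hep-/- mice on CTRL, and 5.83, 6.29 and 7.29 against 7.68, 7.85 and 8.10 on HFD. The ranges overlapped on CTRL and did not on HFD. Hepatocyte deletion raised it by 1.56 ± 0.20 log2 units on CTRL (SE, adjusted p = 1.6e-07 from limma) and by 1.70 ± 0.18 on HFD (adjusted p = 1.54e-09), in 8 of 8 mice relative to the *WT* mean on each diet. On CTRL only 3 of the 8 *WT* arrays were well above background for this probe, and relative to the 75th percentile of each array the difference was 3.27.

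The chromosome 17 lincRNA had 9.25, 9.56 and 10.79 in *WT* on CTRL and 10.90, 11.57 and 12.04 in *Pparα*hep-/- mice, without overlap. It was higher by 1.85 ± 0.19 (adjusted p = 1.4e-09 from limma). On HFD the levels were 10.92, 11.34 and 12.28 against 11.54, 12.02 and 12.25, with overlap, and a difference of 0.69 ± 0.18 (adjusted p = 0.0027 from limma, and 0.11 without array weights). Its order was thus *WT*, then *Pparα*hep-/-, then *Pparα*-/- mice (medians of 13.37 on CTRL and 13.29 on HFD) on both diets.

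*Vldlr* showed the same order. On CTRL it had 5.93, 6.61 and 7.65 in *WT* and 7.19, 7.90 and 8.09 in *Pparα*hep-/- mice, a difference of 1.00 ± 0.28 (adjusted p = 0.0062 from limma). On HFD it had 5.70, 7.79 and 9.03 against 7.93, 8.41 and 9.27, a difference of 0.89 ± 0.25 (adjusted p = 0.0066). The ranges overlapped on both diets, and *WT* mice on HFD were the most spread. The second *Vldlr* probe was called in the same direction on both diets, by 0.47 and 0.33. *Igsf23* was higher by 1.03 ± 0.19 on CTRL (adjusted p = 6e-05) and by 0.83 ± 0.17 on HFD (adjusted p = 0.00027, and 1.26 relative to the 75th percentile), with all 8 *Pparα*hep-/- mice above the *WT* mean on each diet. *Sorl1*, a sorting receptor of the LDL receptor family, was higher by 0.86 ± 0.14 on CTRL and by 1.05 ± 0.12 on HFD (adjusted p = 6.37e-06 and 1.55e-08). *Acot11*, an acyl-CoA thioesterase, had 8.10, 9.30 and 10.74 in *WT* and 8.68, 10.99 and 11.33 in *Pparα*hep-/- mice on CTRL, where the ranges overlapped because of a single low *Pparα*hep-/- mouse. It was higher by 1.33 ± 0.22 on CTRL (adjusted p = 1.23e-05) and by 0.54 ± 0.20 on HFD (adjusted p = 0.039).

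A smaller number of probes were lower after hepatocyte deletion. On chromosome 5, LOC102641139 had 5.73, 5.82 and 6.13 in *WT* and 4.86, 5.0 and 5.59 in *Pparα*hep-/- mice on CTRL, without overlap, and was called lower (adjusted p = 8.94e-08 from limma). The probe of the lincRNA interval chr5:23195569-23218551 was called lower too (adjusted p = 3.86e-06 from limma). The LOC102641139 probe lies inside that interval on the same strand, so the probes do not stand for separate loci. Both were near the floor of the scale: on CTRL they were well above background on 3 and 2 of 8 *WT* arrays and on 0 of 8 *Pparα*hep-/- arrays, so no size is given. On HFD both were called lower again. *Bcl2l15*, a Bcl-2 family gene, fell by 0.43 on CTRL and by 0.35 on HFD. Its probe was well above background on 11 of the 16 *WT* arrays and on 5 of the 16 *Pparα*hep-/- arrays, so these sizes are uncertain. *0610031O16Rik* was lower on HFD alone (-0.66 ± 0.23, adjusted p = 0.03), and *Ccl9* was higher on CTRL alone (0.71 ± 0.17, adjusted p = 0.0015). Whether the difference changed with diet was not tested for these genes.

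**Figure D4:**
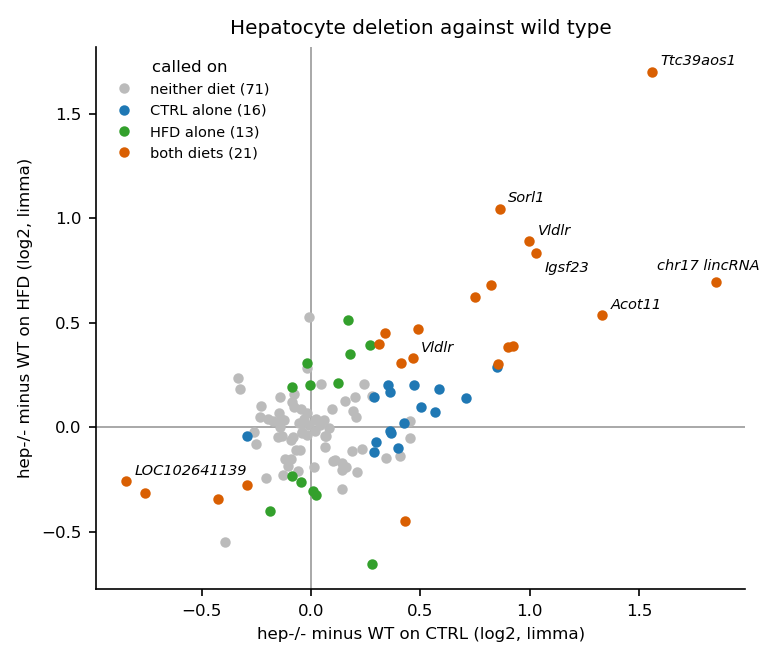
Difference between hepatocyte deletion and WT (log2, limma) on the CTRL diet (horizontal) and on the HFD (vertical) for each of the 121 probes, coloured by the diets on which it was called (71 on neither, 16 on CTRL alone, 13 on HFD alone, 21 on both). *Ttc39aos1* lies high on both axes, and LOC102641139 is among the few called lower on both.

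The second comparison was the change with the high-fat diet inside each genotype. In *Pparα*-/- mice 41 of the 121 probes were called (33.9%, background 24.8%), 25 higher on HFD (background 12.2%) and 16 lower (12.6%). In *Pparα*hep-/- mice 25 were called (20.7%, background 20.2%), 16 higher (9.46%) and 9 lower (10.7%). In *WT* mice 31 were called (25.6%, background 18.8%), 24 higher (8.6%) and 7 lower (10.1%). The median changes of the 121 probes were 0.01, 0.01 and 0.03, against -0.02, -0.01 and -0.01 for all probes. The splits depended on scaling in 2 genotypes: with each array's processed signal set relative to its 75th percentile, 9 were higher and 12 lower in *Pparα*-/- mice, 15 and 13 in *Pparα*hep-/- mice. In *Pparα*-/- mice these were 21 of the 121 (17.4%), below the 26.4% of all probes called with that scaling, so the excess over the background turned. With slide as a block the split in *Pparα*-/- mice was 18 to 18, and without array weights that in *Pparα*hep-/- mice was 3 to 6. Without array weights the counts called were 20, 9 and 20 in the same order of genotypes (background 12.1%, 3.81% and 12.6%), and without the filter 27 were called in *Pparα*-/- mice (10.6%). Of the 121 probes 69 were called for diet in at least 1 genotype (57.0%, background 46.1%), and 37 in no comparison at all (30.6%, background 39.1%).

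HFD raised 4 genes in every genotype, with 5 probes (4.13% of the 121, background 1.14%). They were *Vldlr* with both of its probes, *Bckdhb*, a subunit of the branched-chain keto acid dehydrogenase, *Alad*, an enzyme of haem synthesis, and 1 of 2 probes of *Cap1*, which encodes an actin-binding protein. *Bckdhb* had 12.35, 12.55 and 12.99 in *WT* on CTRL and 12.82, 12.99 and 13.13 on HFD. In *Pparα*-/- mice it had 13.62, 13.74 and 13.87 on CTRL and 13.92, 14.10 and 14.33 on HFD, where the diets did not overlap. HFD raised it by 0.41 ± 0.08 in *WT* mice, by 0.26 ± 0.06 after hepatocyte deletion and by 0.38 ± 0.07 after whole-body deletion (adjusted p = 0.00013, 0.0029 and 5.8e-05 from limma). *Vldlr* rose by 1.05 ± 0.29, 0.94 ± 0.24 and 0.68 ± 0.25 in the same order (adjusted p = 0.007, 0.0046 and 0.042). Without array weights these *Vldlr* changes were of similar size and none was called (adjusted p = 0.081, 0.18 and 0.13). In *Pparα*-/- mice the call was also lost with slide as a block, with the replicate block, without the filter and relative to the 75th percentile (adjusted p = 0.055, 0.069, 0.10 and 0.12 from limma). *Alad* rose by 0.35, 0.30 and 0.22.

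In *Pparα*-/- mice the largest diet changes were decreases of non-coding or unclassified transcripts. *4933404I11Rik* had 6.18, 7.07 and 7.95 on CTRL and 5.50, 5.80 and 6.41 on HFD, with slight overlap, and fell by 1.21 on the log2 scale (SE 0.12, adjusted p = 1.61e-09 from limma) in 8 of 8 mice relative to the CTRL mean. This probe was well above background on 13 of the 16 *Pparα*-/- arrays and on none of the others, and relative to the 75th percentile of each array its change was -1.94. *Gm31025* had 9.89, 11.10 and 12.16 on CTRL and 9.19, 9.87 and 11.36 on HFD, and fell by 1.18 (SE 0.23, adjusted p = 0.00018). *Ppp1r14a* fell by 0.71, *Col20a1*, a collagen gene, by 0.64, and *Bcl2l15* by 0.63. Raised were *Igsf23* (0.69 ± 0.17, adjusted p = 0.0026), *Cyp2c39* (0.56 ± 0.14, adjusted p = 0.0022), *BC018473* (0.52 ± 0.18, adjusted p = 0.026), *Hist2h2bb* (0.43 ± 0.12, adjusted p = 0.0073) and *Xaf1* (0.38 ± 0.13, adjusted p = 0.024). *Adamts13* had 6.93, 7.28 and 7.56 on CTRL and 7.47, 7.67 and 7.94 on HFD and rose by 0.38 ± 0.08 (adjusted p = 0.00031 from limma). The wash batches gave the same sign for 40 of the 41 called probes. The exception was *Hist2h2bb*, at -0.10 and 0.77 in the first and second batch, and *BC018473* differed in size, at 0.15 and 0.80.

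In *Pparα*hep-/- mice *Ccl9* had 12.15, 12.72 and 13.11 on CTRL and 11.15, 11.74 and 12.35 on HFD and fell by 0.93 on the log2 scale (SE 0.15, adjusted p = 1.63e-05 from limma). *Col20a1* fell by 0.67 and *Col6a5*, another collagen gene, rose by 0.67 ± 0.22 (adjusted p = 0.025, from 4 of 8 arrays well above background on CTRL to 7 of 8). The size for *Col6a5* was 1.39 relative to the 75th percentile, and 0.42 with normexp background correction, where it was not called. *Ttc39aos1* rose by 0.62 ± 0.18 (adjusted p = 0.011). The increases of *Col6a5* and *Ttc39aos1* were not called without array weights (adjusted p = 0.31 and 0.17).

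In *WT* mice the largest changes were increases. The chromosome 17 lincRNA rose from 9.25, 9.56 and 10.79 to 10.92, 11.34 and 12.28, without overlap, by 1.60 ± 0.20 (adjusted p = 4.36e-07 from limma). *0610031O16Rik* rose from 7.28, 9.45 and 10.49 to 9.95, 10.57 and 10.89, by 1.34 ± 0.26 (adjusted p = 0.00026). *Acot11* rose by 0.86 ± 0.23 (adjusted p = 0.0052), *Asic5* by 0.81 ± 0.16 (adjusted p = 0.00037) and *Hddc3* by 0.53 ± 0.09 (adjusted p = 5.82e-05), the last without overlap between diets, from at most 5.97 to at least 5.98. On CTRL the *Hddc3* probe was well above background on 3 of the 8 *WT* arrays.

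**Figure D5:**
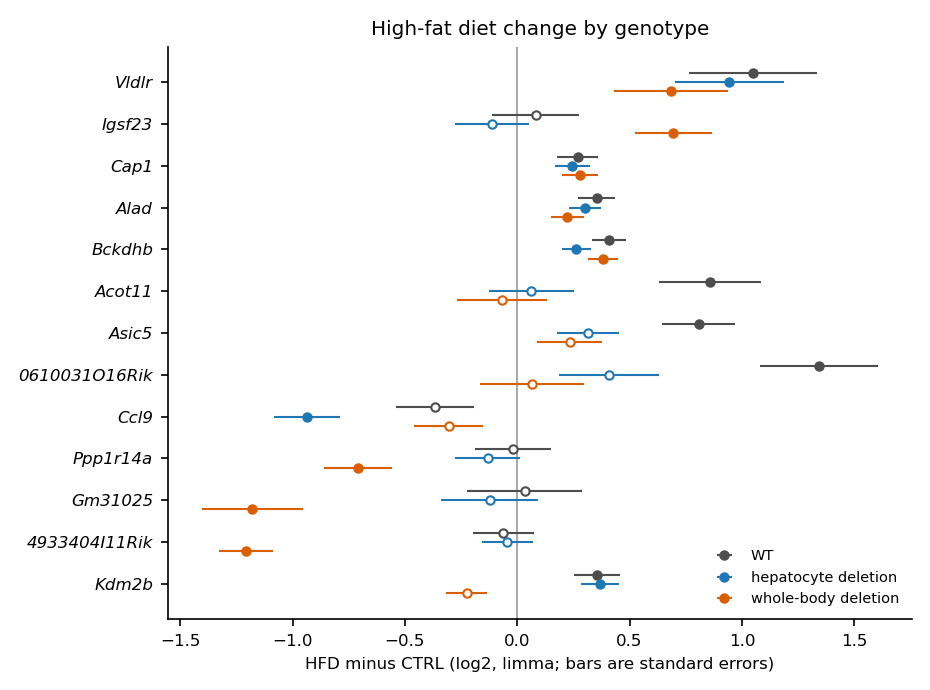
Change with the high-fat diet (log2, limma, with its standard error, 8 mice a group) in WT (grey), hepatocyte deletion (blue) and whole-body deletion (orange) for 13 genes, filled where called and open where not. *Vldlr*, *Cap1*, *Alad* and *Bckdhb* are filled in all 3 genotypes; *4933404I11Rik* and *Gm31025* lie near -1.2 in whole-body deletion; the *4933404I11Rik* points of the other genotypes come from arrays on which its probe was not well above background.

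Differences between genotypes in the diet response were tested as interactions. Between *Pparα*-/- and *WT* mice the fit called 22 of the 121 probes (18.2%, background 14.3%), 8 with a higher response in *Pparα*-/- mice (background 6.93%) and 14 with a lower one (7.42%). Without array weights 9 were called (background 5.22%), and without the filter 10 (4.47%). Relative to the 75th percentile of each array the split was 3 to 18. The chromosome 17 lincRNA (-1.72 ± 0.27, adjusted p = 5.63e-05 from limma), *0610031O16Rik* (-1.28 ± 0.35, adjusted p = 0.011) and *Acot11* (-0.93 ± 0.30, adjusted p = 0.032) rose with HFD in *WT* mice and were not called for diet in *Pparα*-/- mice. For *Gm31025* (-1.21 ± 0.34, adjusted p = 0.013) the diet change within *WT* mice was not called. Without array weights, *0610031O16Rik*, *Acot11* and *Gm31025* had adjusted p of 0.075, 0.084 and 0.087 for this difference, and without the filter *Acot11* and *Gm31025* had 0.056 and 0.053. *Hddc3* rose in *WT* (0.53) and fell in *Pparα*-/- mice (by 0.22, adjusted p = 0.043), and its responses differed by -0.75 ± 0.12 (adjusted p = 8.45e-05). *4933404I11Rik* was also called here and relative to *Pparα*hep-/- mice, and the counts, shares and splits include it. Its probe was not well above background on any *WT* or *Pparα*hep-/- array, so its response there was not measured and no difference in response is given.

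Between *Pparα*-/- and *Pparα*hep-/- mice the fit called 5 probes (4.13%, background 3.42%), 2 higher (2.12%) and 3 lower (1.3%), a share close to that of all probes. The count includes *4933404I11Rik*, whose response in *Pparα*hep-/- mice was not measured. The others were *Gm31025* (-1.06 ± 0.31, adjusted p = 0.047 from limma), *Igsf23* (0.81 ± 0.24, adjusted p = 0.046), *Kdm2b*, a histone demethylase gene (-0.60 ± 0.12, adjusted p = 0.0036), and the lincRNA chr2:151992806-152025456 (0.42 ± 0.11, adjusted p = 0.025). At an unadjusted p under 0.05 there were 32 (26.4%, background 16.7%). Without array weights none of the other 4 was called (background 0.33%). *Gm31025* also lost its call with slide as a block, without the filter and relative to the 75th percentile (adjusted p = 0.081, 0.15 and 0.080 from limma), as did *Igsf23* (0.057, 0.12 and 0.18, and 0.063 on the authors' table). The chromosome 2 lincRNA lost it without the filter (0.094). These differences and those with *WT* mice share the *Pparα*-/- arrays. For *Igsf23* the wash batches gave 0.25 and 1.09.

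By known role the set was mixed, and the groups below were formed after the values had been seen, so their counts are descriptions. The shares of all probes to read them against were 11.3% higher and 13.4% lower for hepatocyte deletion on CTRL, 13.3% and 13.4% on HFD, 8.6% raised by HFD in *WT* mice, and 12.2% raised and 12.6% lowered by HFD in *Pparα*-/- mice. Lipid and lipoprotein handling (*Vldlr*, *Sorl1*, *Acot11*, *Acad10*, *Acad12*, *Atp10d* and *Prelid2*) had 7 genes with 9 probes, of which hepatocyte deletion raised 6 on CTRL and 4 on HFD and lowered none, and 5 were raised by HFD in *WT* mice. Amino acid, cofactor and drug metabolism had 10 genes. Of these 6 were higher in *Pparα*hep-/- mice on CTRL, among them *Bckdhb*, *Bcat2* and *Dhtkd1*, enzymes of branched-chain and lysine breakdown, and on HFD 0 were higher and 1 was lower. The diet raised 5 in *WT* mice. Matrix, adhesion and glycan genes numbered 11, with 2 higher on CTRL and 3 higher and 1 lower on HFD, and histone, chromatin and RNA genes 13 with 14 probes, of which 5 rose and 1 fell with HFD in *Pparα*-/- mice. Channels, receptors and synaptic genes numbered 8 with 9 probes, and none was called between *Pparα*hep-/- and *WT* mice on CTRL and 1, lower, on HFD. Immune and interferon genes (*Xaf1*, LOC630751, *Ccl9*, *Map3k14*, *Fcgbp* and *Akna*) numbered 6. Between *Pparα*hep-/- and *WT* mice *Ccl9* was called, on CTRL, and of the other 5 only *Map3k14* was well above background on more than 4 of the arrays compared. Annotated non-coding RNAs numbered 19, with 6 higher and 2 lower on CTRL and 4 and 4 on HFD.

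The gene lists held few of the 121 probes, which were 0.369% of the table, so a list of this size would hold few or none in any case. None of 30 PPARα target genes, 12 female-biased and 15 male-biased liver genes, 19 genes of antigen presentation or 26 genes of lipid synthesis present in the table had an exclusively high probe. The drug and hormone metabolism list contributed *Cyp2c39* (1 of 40 genes) and the interferon list *Xaf1* (1 of 22). In the counts of calls that follow, each gene stood with its brightest probe. For *Xaf1* that was the further probe, which was exclusively low in *Pparα*-/- mice, and not the selected one. On CTRL hepatocyte deletion raised 17 of the 22 interferon genes relative to *WT* (background 11.3%) and lowered none, and 17 (background 13.3%) and none on HFD. HFD raised 13 of them (background 12.2%) and lowered 2 in *Pparα*-/- mice, raised 0 and lowered 4 in *Pparα*hep-/- mice, and raised 0 and lowered 3 in *WT* mice. Of the 30 PPARα targets, 4 were called higher and 10 lower in *Pparα*hep-/- mice on CTRL (background 11.3% and 13.4%), 1 and 15 on HFD (13.3% and 13.4%).

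Markers of other cell types had no probe in the set. The log2 of their summed intensities on *Pparα*-/- and other arrays overlapped in every list: 14.53 to 16.24 against 13.78 to 16.17 for Kupffer cells and macrophages, 11.66 to 12.18 against 11.53 to 12.09 for lymphocytes, 10.85 to 12.96 against 10.52 to 15.19 for neutrophils, 14.26 to 16.18 against 13.88 to 16.41 for stellate cells and fibroblasts, and 11.02 to 13.26 against 10.70 to 14.77 for bile duct cells. The medians of these lists, in the same order, were 15.48 against 15.12, 11.89 against 11.70, 11.83 against 11.07, 15.56 against 15.04 and 12.51 against 11.92, each higher on *Pparα*-/- arrays. Endothelial cells had 13.48 to 14.30 against 13.18 to 14.23 (medians 14.10 and 13.85), pancreatic acinar cells 13.51 to 14.58 against 13.07 to 14.71 (13.84 and 14.11), and erythroid cells 16.28 to 18.17 against 16.39 to 18.22 (17.39 and 17.27). The adipocyte markers, 3 of which were in the table, reached 15.60 on an array of *WT* mice on HFD and 8.56 at most in *Pparα*-/- mice, with medians of 8.62 over the other arrays and 8.10. The part of any of these cell types in the values above was not tested.

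Promoter sequence was compared with the expression pattern through RefSeq windows of 300 bases around each start, most of it upstream (GRCm38.p6), of which 107 belonged to 80 of the genes. The nuclear receptor half-site AGGTCA, on either strand, was in 19 of these windows (17.8%) and in 16.3% of all 32851 windows. The full direct repeat with 1 base between, AGGTCANAGGTCA, which contains that half-site, was in 1 window of the set and in 13 of all windows (0.0396%). The interferon-stimulated response core GAAANNGAAA was in 2.8% of the set's windows against 3.44% of all, not including *Xaf1*, and the STAT motif TTCNNNGAA in 8.41% against 8.3%. The single direct repeat belonged to *Igsf23*. Its window, chr7:19950694-19950993 on the reverse strand, is shown with both half-sites in capitals as they read on the opposite strand, beginning 72 bases before the start; the window of its other annotated start held no match.
Igsf23 promoter: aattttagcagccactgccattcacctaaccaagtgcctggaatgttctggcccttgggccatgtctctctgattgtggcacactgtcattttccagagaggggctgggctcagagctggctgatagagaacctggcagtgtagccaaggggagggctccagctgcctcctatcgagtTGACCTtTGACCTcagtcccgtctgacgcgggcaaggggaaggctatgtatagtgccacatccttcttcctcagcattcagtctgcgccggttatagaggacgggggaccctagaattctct
A match of letters is a description of this window and not evidence of binding.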

How the data were processed

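Liver RNA of 48 mice (6 groups of 8) was hybridised to 1-colour Agilent arrays by the authors and read with Feature Extraction 10.10.1.1. The scanner files, as deposited, hold median spot intensity, background flags, probe sequence, gene names and mm9 positions. The authors' log2 table, as deposited, holds median intensities that were put on the log2 scale after a filter and adjusted for wash bath and distribution (quantiles), and its median was 7.911 on every array. Its values correlated with the quantile normalized log2 scanner values (r of 0.9994 to 0.9995 per array). A correlation does not depend on scale or centring, so the log2 scale rests on the study's description. Values of 1-colour arrays have no direction to settle. Levels and the selection of probes come from that table, tested changes from the intensities.

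For the tests, log2 median intensities without outlier spots were averaged per probe. Of 56605 probes, 33326 were kept, those well above background in 4 or more of the 8 mice of some group, and were quantile normalized. limma 3.58.1 (R 4.3.3) was fitted over all 48 arrays with 1 mean per group, wash batch and array weights (0.189 to 2.53), and p was adjusted by Benjamini-Hochberg within each contrast. Errors are standard errors. The 195 missing values were dropped probe by probe. The fit was tested on simulated data. The number of mice limits the precision. No 2 arrays were identical (highest r 0.99667). Where no array of a group was well above background, a fold is a lower bound, taken against the dimmest probes above background on those arrays.

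The members, lists and tests were chosen with earlier results of these data known. Genes named are the 25 with the largest difference, the 5 largest called changes per contrast, the 5 largest runs (the fifth tied with others), list members, probes beside the thresholds, and *Ppara*. *D130020L05Rik*, LOC102641139, the genes raised in all genotypes and the role groups were chosen after their values were seen. By accession 81 probes matched RefSeq, 4 of them under another symbol. File names of genes are kept. Python 3.11.15 with pandas 2.3.3 was used otherwise.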

Additional observations from a re-analysis of the deposited data

Results flagged for a closer look

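Among the 25 leading genes, 150 groups of 8 mice were examined for a single array far from the others, and 18 had one whose distance to the nearest array, relative to the group's range, exceeded Dixon's critical value. Chance alone gives about 1 such group in 20. In *WT* mice on CTRL these were *BC018473* (5.78 in replicate 3, nearest array 5.16), *4930435C17Rik* (6.55 in replicate 4, nearest 5.68) and *Prrxl1* (a low value of 7.05 in replicate 6, nearest 7.49). On HFD they were *BC018473* (5.69 in replicate 6), *Wdr63* (6.26 in replicate 4) and *Col6a5* (6.88 in replicate 5).

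In *Pparα*hep-/- mice on CTRL they were *BC018473* (5.24 in replicate 4), *Igsf23* (8.06 in replicate 8), *Prelid2* (8.83 in replicate 1, nearest 7.14), *Wdr63* (6.19 in replicate 5), *Col6a5* (6.55 in replicate 1) and a low *Col20a1* (6.25 in replicate 3). On HFD they were *Xaf1* (6.40 in replicate 8, nearest 5.65), *BC018473* (5.91 in replicate 3, nearest 4.95), *Igsf23* (8.05 in replicate 7), *Gm31025* (7.91 in replicate 8) and *Ppp1r14a* (8.50 in replicate 1). The only such array in *Pparα*-/- mice was a low *Bcl2l15* (7.86 in replicate 2 on CTRL). *Prelid2* and *Col6a5* in *Pparα*hep-/- mice on CTRL, *Prrxl1* in *WT* mice on CTRL and *BC018473* in *WT* mice on HFD came from arrays that also had low weights.

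The response to HFD differed between *Pparα*-/- and *WT* mice (limma interaction, 8 mice a group) by -1.72 for the chromosome 17 lincRNA (adjusted p = 5.63e-05), -1.28 for *0610031O16Rik*, -1.21 for *Gm31025* and -0.93 for *Acot11*. Between *Pparα*-/- and *Pparα*hep-/- mice it differed by -1.06 for *Gm31025*, 0.81 for *Igsf23*, -0.60 for *Kdm2b* and 0.42 for the chromosome 2 lincRNA. The fit also gave -1.15 and -1.17 for *4933404I11Rik*, but its probe was not well above background on any array of *WT* or *Pparα*hep-/- mice, so these values compare a change in *Pparα*-/- mice with a response that was not measured.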

How the results depend on the processing

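The number of exclusively high probes was 120 from quantile normalized intensities and 122 with the wash effect removed from them, 220 with a difference of at least 0.5 and 38 with at least 2 log2 units, and 155 and 178 within the first and second wash batch, where fewer arrays have to be separated. Without array weights the called probes numbered 20 for HFD in *Pparα*-/- mice (12.1% of all probes were called), 9 for HFD in *Pparα*hep-/- mice (3.81%), 20 for HFD in *WT* mice (12.6%), 13 between *Pparα*hep-/- and *WT* mice on HFD (9.74%), and 9 and 1 for the response of *Pparα*-/- relative to *WT* and *Pparα*hep-/- mice (5.22% and 0.33%). Without the filter on dim probes the counts were 27 for HFD in *Pparα*-/- mice (10.6%), 18 between *Pparα*hep-/- and *WT* mice on HFD (9.95%), and 10 and 2 for the responses (4.47% and 0.705%). With the processed signal relative to its 75th percentile, 21 were called for HFD in *Pparα*-/- mice (26.4%), and with normexp background correction 10 (6 higher, 4 lower) for the response relative to *Pparα*hep-/- mice (3.95%). The cause was not tested. Of 35 named tested changes none reversed in any setting; 13 were no longer called without array weights, 7 without the filter, 4 with the 75th percentile, 3 with slide as a block, 1 with normexp, 1 on the authors' table and none without the 4 arrays of lowest weight, a setting added after seeing the data. The counts without these arrays were 40, 28, 32, 37, 36, 23 and 5, in the order HFD in *Pparα*-/-, *Pparα*hep-/- and *WT* mice, *Pparα*hep-/- against *WT* on CTRL and HFD, and the responses relative to *WT* and *Pparα*hep-/- mice (25.3%, 23.5%, 18.6%, 25.3%, 30.1%, 16.3% and 3.39% of all probes). *Igsf23* for the last of these had an adjusted p of 0.0464, and 0.0573 to 0.299 in the 6 settings that lost it. *Vldlr* for HFD in *Pparα*-/- mice lost its call in 5 settings (0.0548 to 0.130).

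Replicate numbers recur in each group but did not pair the samples: 35 of 120 same-numbered pairs correlated above 0.1, and 22.9% of arrays correlated best with their own number. With the replicate block the counts were 41, 24, 27, 33, 30, 18 and 6 in the order above (26.1%, 18.8%, 15.8%, 22.4%, 22.4%, 13.3% and 2.78% of all probes), and 3 of the 35 named changes were no longer called. They were the responses of *Gm31025* and *Igsf23* relative to *Pparα*hep-/- mice (adjusted p = 0.090 and 0.068 from limma) and the change of *Vldlr* with HFD in *Pparα*-/- mice (0.069). Signal over background limits what is known of the 22 probes that were dim in *WT* and *Pparα*hep-/- mice.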
